A study of Mus musculus with 11 samples.

Results

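The imprinted genes of the Prader-Willi and Angelman region of mouse chromosome 7 were examined for binding of Smchd1, a chromatin protein tagged with green fluorescent protein (GFP). The set comprised 7 genes, taken by name out of 20560 autosomal coding genes: Ube3a, Snurf, Snrpn, Ndn, Magel2, Mkrn3 and Peg12, in their order along the chromosome in the mm10 build. All 7 were found in the RefSeq annotation. They spanned chr7:59228750-62464510, and with 5 kb on each side the region measured 3.25 Mb. It held 22 of the 2840 peaks of an experiment with micrococcal nuclease (MNase) and 5 of the 2196 peaks of an experiment with sonication.

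The cells were C57BL/6 neural stem cell lines made from embryos of embryonic day 14.5 and grown for at most 20 passages. An anti-GFP antibody was used for the pull-down, both in cells homozygous for a Smchd1-GFP fusion knock-in allele and in wild-type cells, which carry no GFP, and whole cell extract was sequenced as input. In the MNase experiment there were 2 libraries of knock-in cells, 1 male and 1 female, 2 of wild-type cells, again 1 of each sex, and 1 of female whole cell extract. The sonication experiment, with 30 min of sonication meant to free the inactive X chromosome, had 2 libraries each of knock-in cells, of wild-type cells and of whole cell extract, all female. The labels give no genotype for the whole cell extracts. The identity of the cells was taken from the labels, since peak positions hold no expression level. The authors deposited 1 list of peak positions for each experiment and no value for a library. Depth, replicate spread and the level in wild-type cells were therefore unknown at every peak, and no difference between groups of samples was tested.

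In an imprinted gene, the maternal and the paternal copy are expressed unequally. In this region Snrpn, Snurf, Ndn, Magel2, Mkrn3 and Peg12 are known to be expressed from the paternal copy, while Ube3a is expressed from the maternal copy in neurons, where the long antisense transcript Snhg14 silences the paternal one. An imprinting control element lies at the start of Snurf and Snrpn and is methylated on the maternal copy. Smchd1 belongs to the SMC family of chromosome proteins and is known for silencing on the inactive X, and mouse embryos that lack it misexpress some imprinted genes, among them genes of this region.

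Promoters from RefSeq (GRCm38.p6) were available for all 7 genes, as 9 distinct start sites, 4 of them of Snrpn. The 250 bases before the start are printed 5′ to 3′ on the strand of the gene for the start sites on which the results turn. The promoter of Ndn, chr7:62348027-62348276 on the plus strand, was the only one of the 9 with a peak of either list over it. Capitals mark the 224 bases that lay inside an MNase peak.
Ndn: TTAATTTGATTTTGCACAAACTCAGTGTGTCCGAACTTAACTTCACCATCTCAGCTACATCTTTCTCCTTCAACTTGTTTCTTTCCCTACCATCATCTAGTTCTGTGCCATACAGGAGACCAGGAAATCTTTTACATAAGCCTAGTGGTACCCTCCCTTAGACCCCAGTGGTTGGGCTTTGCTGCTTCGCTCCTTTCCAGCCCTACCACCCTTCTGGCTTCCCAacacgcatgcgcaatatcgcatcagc
The start shared by Snurf and Snrpn, the seat of the imprinting control element, had no peak near it. Its promoter is chr7:60005200-60005449 on the minus strand, and capitals mark CpG dinucleotides, the sites of DNA methylation.
Snurf and Snrpn: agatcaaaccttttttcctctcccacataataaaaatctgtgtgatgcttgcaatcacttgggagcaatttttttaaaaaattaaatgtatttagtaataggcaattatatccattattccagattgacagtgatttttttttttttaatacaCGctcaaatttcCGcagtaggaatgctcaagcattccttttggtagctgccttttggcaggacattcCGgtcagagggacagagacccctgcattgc
The other 3 start sites of Snrpn lie farther upstream, 42.8, 135 and 445 kb from the first. Transcripts from upstream starts of Snrpn are known from brain and oocytes. These promoters are chr7:60047979-60048228, chr7:60140226-60140475 and chr7:60450178-60450427, all on the minus strand. They are shown because the peaks of Snrpn lay among these upstream starts, between those at 135 and 445 kb. Capitals mark the longest run of bases that all 3 share.
Snrpn at 42.8 kb: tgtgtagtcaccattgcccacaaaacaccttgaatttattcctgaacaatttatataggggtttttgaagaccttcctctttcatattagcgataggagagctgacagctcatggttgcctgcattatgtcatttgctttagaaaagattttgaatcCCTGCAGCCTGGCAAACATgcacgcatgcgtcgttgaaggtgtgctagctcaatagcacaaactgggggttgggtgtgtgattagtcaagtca
Snrpn at 135 kb: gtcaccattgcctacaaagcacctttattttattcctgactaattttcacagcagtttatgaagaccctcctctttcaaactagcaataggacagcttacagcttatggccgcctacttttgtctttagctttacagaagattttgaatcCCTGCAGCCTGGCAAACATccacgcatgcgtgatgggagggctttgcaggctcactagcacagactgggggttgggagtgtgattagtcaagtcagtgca
Snrpn at 445 kb: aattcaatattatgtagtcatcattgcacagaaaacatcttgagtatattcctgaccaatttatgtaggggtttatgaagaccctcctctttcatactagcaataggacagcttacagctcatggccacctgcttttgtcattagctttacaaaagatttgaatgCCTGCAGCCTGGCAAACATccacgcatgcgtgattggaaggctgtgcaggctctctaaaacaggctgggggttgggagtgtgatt

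The 3 upstream promoters of Snrpn resembled each other. In global alignments, counted over all columns with gaps, the pairs were 79.8%, 77.9% and 76.7% identical. Against the promoter shared with Snurf they were 50.4%, 51.6% and 52.8% identical. The shared run was 19 bases long, held no CpG, and was found on either strand in no other promoter among 20063 of autosomal coding genes. The promoters other than that of Ube3a held 2 to 10 CpG in 250 bases, where all promoters had a median of 10 and quartiles of 3 and 19. Ube3a, the gene of a ubiquitin ligase, had 24. The hexamer TGCCGC, which the imprinting factor ZFP57 binds when methylated, was searched on both strands and was in 0 of the 9 windows. It was in 10.3% of all promoters, and at that share 9 windows often hold none. Only the 250 bases before each start were searched, so sequence after the starts was not read. The letters CCCTC, part of the core of the CTCF motif, were in 8 of the 9, against 65.0% of all promoters. Since the 3 upstream promoters of Snrpn are alike, the 9 windows are not separate draws, and no difference was tested. A match is a description of the letters and not a binding site.

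MNase peaks were called in or within 5 kb of 5 of the 7 genes: Ube3a, Snrpn, Ndn, Mkrn3 and Peg12. Of all autosomal coding genes, 5.58% had such a peak. Snurf and Magel2 had none. In the gene itself, 3 of the 7 had an MNase peak, against 4.36% of all autosomal coding genes. Sonication peaks were called at 1 of the 7, Snrpn, where 2.95% of all autosomal coding genes had one within 5 kb and 2.57% had one in the gene. Snrpn was thus also the only one with peaks of both lists, as 0.793% of all autosomal coding genes had. Several of the genes lie close together and Snurf lies inside the span of Snrpn, so the members are not separate draws from the genome. Length differed widely among them, from 1.7 kb for Ndn to 467.7 kb for Snrpn. Among the 338 autosomal coding genes of at least 400 kb, 41.7% had an MNase peak and 37.3% a sonication peak. At least 5 MNase peaks, as Snrpn had, were found at 12 of the 338, and at least 5 MNase with at least 2 sonication peaks at 2 of them, Snrpn included. Of the 5 at Snrpn, 2 directly adjoin each other, and these counts of genes were not repeated with adjoining peaks merged.

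The region as a whole held more MNase peaks for its length than the rest of the autosomes. Its 22 peaks (exact 95% Poisson interval 13.8 to 33.3) came to 6.78 per Mb (4.25 to 10.3), against 1.17 per Mb over the 2806 other autosomal peaks, a ratio of 5.80 (3.63 to 8.78). The 5 sonication peaks (1.62 to 11.7) came to 1.54 per Mb (0.500 to 3.59), against 0.684 per Mb over 1641 other autosomal peaks, a ratio of 2.25 (0.732 to 5.26) whose interval includes equal density. With peaks of the smallest width left out of the sonication list, the same 5 peaks gave a ratio of 7.44. All 5 are wider than that, while 69.7% of the other autosomal sonication peaks are not, so this filter could only raise the ratio. These intervals cover counting error only, and neighbouring peaks are not independent. Of the 22 MNase peaks, 7 overlapped a member, 2 lay within 5 kb of one and 13 lay between the genes. Of the 5 sonication peaks, 2 overlapped a member and 3 lay between the genes. The 11 broad domains that the authors deposited included 0 on chromosome 7. With only 11 in all, many chromosomes must lack one.

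**Figure D1:**
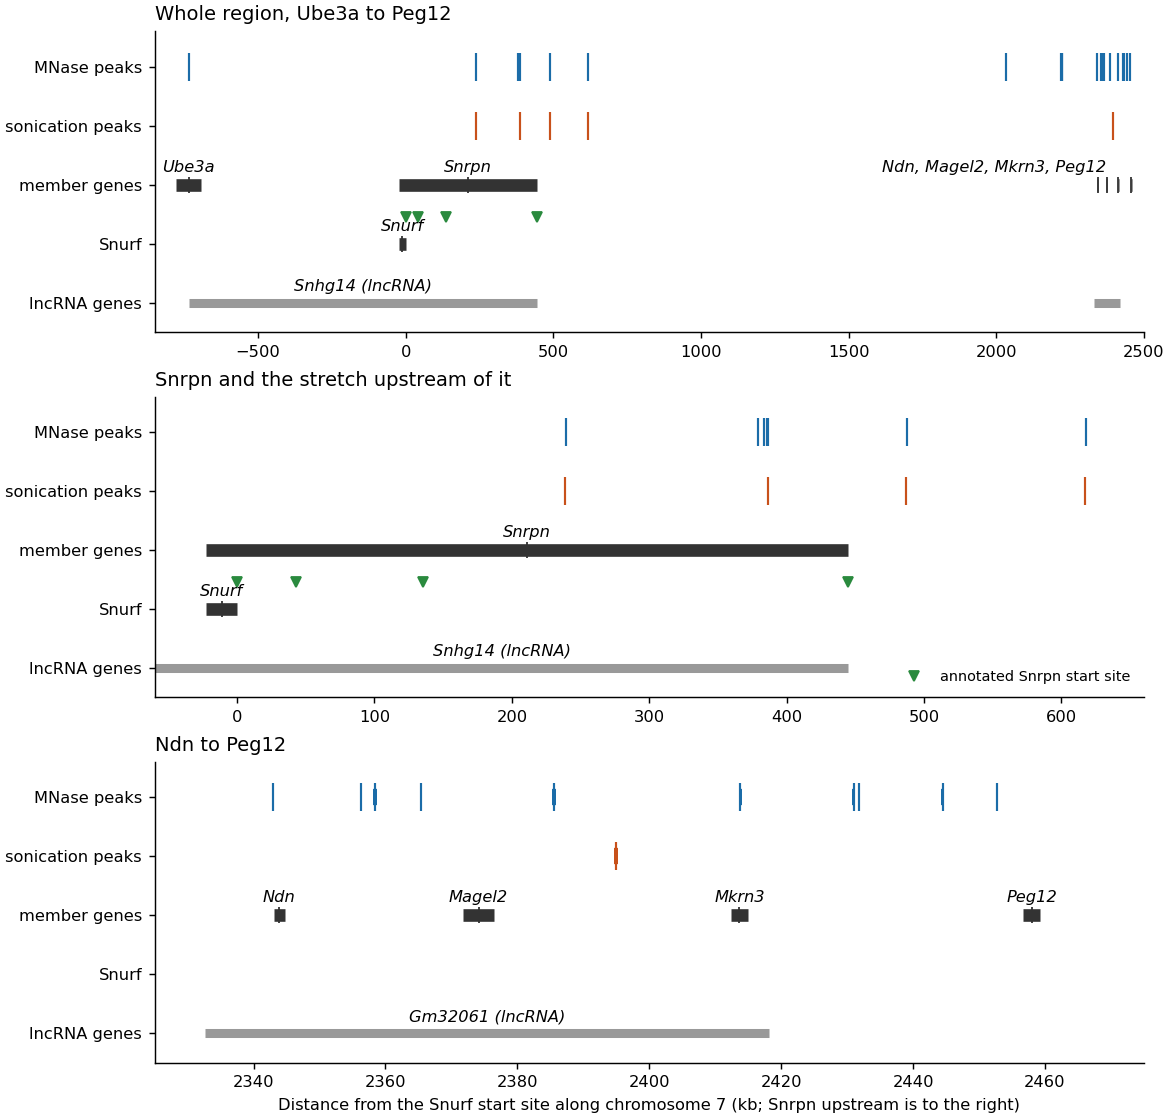
Peaks of both lists and the 7 genes by distance in kb from the Snurf start site, for the whole region, the stretch around Snrpn and the stretch from Ndn to Peg12. Vertical ticks mark peak centres and are wider than most peaks, thick bars are genes to scale, and green triangles are annotated Snrpn start sites. The 4 sonication peaks at and beyond Snrpn each overlap an MNase peak at least in part, and 10 MNase peaks crowd the 126.2 kb around Ndn, Magel2, Mkrn3 and Peg12.

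The peaks were uneven along the region, as the map of peaks and genes shows. Of the 22 MNase peaks, 7 lay at and upstream of Snrpn, 10 lay from Ndn to Peg12 with 5 kb on each side, and 5 lay elsewhere, 1 of them in Ube3a. Between the last peak of the Snrpn group and the next MNase peak lay 1.41 Mb without an MNase peak. Another 971.4 kb without one separated the peak in Ube3a from the first in Snrpn. The longest stretch without a sonication peak measured 1.78 Mb. Autosomes were also cut into windows of 1 Mb. The window from 60 to 61 Mb, with the upstream part of Snrpn, held 7 MNase peaks, a number reached by 39 of 2413 windows (1.62%), and 4 sonication peaks, reached by 25 (1.04%). The window from 62 to 63 Mb, with Ndn to Peg12, held 19 MNase peaks, reached by 8 windows (0.332%), and 2 sonication peaks, reached by 402 (16.7%). The window from 61 to 62 Mb, with none of the 7 genes, held 0 of either list, like 45.3% of windows for MNase and 53.9% for sonication. The window from 59 to 60 Mb, with Ube3a and most of Snurf, held 1 of each, the sonication peak lying outside the region. Some of the peaks from 62 to 63 Mb also lay beyond Peg12. The median autosomal window held 1 MNase peak and 0 sonication peaks.

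**Figure D2:**
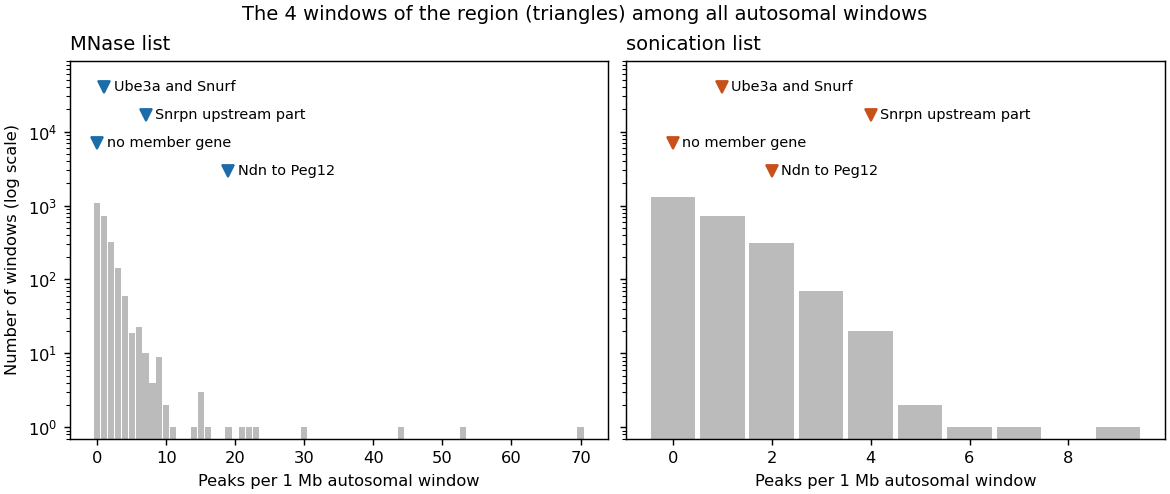
Number of autosomal windows of 1 Mb (log scale) by the peaks they hold, for the MNase and the sonication list. Triangles place the 4 windows that cover the region, and the windows of the Snrpn upstream part (7 MNase and 4 sonication peaks) and of Ndn to Peg12 (19 and 2) lie to the right of the median window, which holds 1 MNase and 0 sonication peaks.

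Snrpn, which encodes a splicing protein of neurons, carried the most peaks of the 7 genes, 5 in the MNase list and 2 in the sonication list. All lay in the part of its span upstream of the Snurf start, chr7:60005200-60450177. The widest MNase peak, chr7:60243601-60245100, measured 1500 bp. The next peaks clustered around 385 kb upstream of the Snurf start: narrow ones of 300 bp at chr7:60383851-60384150 and chr7:60388801-60389100, one of 600 bp at chr7:60390301-60390900 and, directly adjoining it, one of 1350 bp at chr7:60390901-60392250. The 2 adjoining peaks were counted as 2, also where genes were ranked by their number of peaks. The sonication peaks in Snrpn were chr7:60243751-60244500 and chr7:60390901-60391650, each 750 bp wide. Exons are not part of the annotation used, so whether these peaks are exonic or intronic is not given. They all fell also within Snhg14, the antisense transcript whose annotated span of 1177.4 kb starts at the same upstream site.

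None of the peaks of Snrpn came within 5 kb of any of its 4 start sites. From the start shared with Snurf, the imprinting control element, the nearest MNase peak was 238.4 kb away and the nearest sonication peak 238.6 kb. For the start sites at 42.8 and 135 kb, the promoter was 195.4 and 103.1 kb from an MNase peak. The most upstream start site, at 445 kb, was nearest to a peak on its far side, at 42.3 kb in the MNase list and 41.8 kb in the sonication list. Snurf, which encodes a small protein from the same transcript as Snrpn, had no peak in its 22.7 kb in either list.

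Beyond the last start site of Snrpn, a pair of further sites without any overlapping gene carried peaks of both lists. At chr7:60492451-60493650 the MNase peak was 1200 bp wide, and a sonication peak of 750 bp at chr7:60492001-60492750 overlapped it by 300 bp. At chr7:60622501-60623100 the MNase peak was 600 bp wide, and a sonication peak of the same width at chr7:60622351-60622950 overlapped it by 450 bp. Their distances to Snrpn were 42.3 and 172.3 kb. The nearest record to the second site was Gm3198, a pseudogene 20.8 kb away.

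All overlap between the lists within the region fell in the Snrpn group. Of the 5 sonication peaks of the region, 4 (80%, exact 95% binomial interval 28.4% to 99.5%) overlapped an MNase peak by at least 1 bp, against 45 of 1641 (2.74%, 2.01% to 3.65%) in the rest of the autosomes. Of the 22 MNase peaks, 4 (18.2%, 5.19% to 40.3%) overlapped a sonication peak, against 43 of 2806 (1.53%, 1.11% to 2.06%). Over all autosomes including the region, the shares were 2.98% of sonication and 1.66% of MNase peaks. The 4 pairs overlapped by 750, 750, 300 and 450 bp in the order of their positions, and the sonication centres lay 150 to 675 bp from the MNase centres. Among sonication peaks of at least 600 bp, the share was 4 of 5 in the region and 40 of 178 (22.5%, 16.6% to 29.3%) in the rest of the autosomes, so that the intervals meet. Among MNase peaks of at least 600 bp, it was 4 of 8 (50%, 15.7% to 84.3%) in the region and 38 of 1069 (3.55%, 2.53% to 4.85%) in the rest. The cut of 600 bp equals the smallest width of the 5 sonication peaks of the region, so all 5 pass it. The 4 shared MNase peaks all belong to the Snrpn group, and neighbouring peaks are not independent. The intervals cover counting error only, and no difference in these shares was tested. Both experiments used the same antibody, and whether they shared cells is not given.

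Few other places held as many shared sites. The window from 60 to 61 Mb had 4 MNase peaks that overlapped a sonication peak. Of 2413 autosomal windows, 25 (1.04%) had any and 5 (0.207%) had 4 or more. The other 4 of these held the HoxA, HoxB, HoxC and HoxD clusters of homeobox genes, with 11, 10, 7 and 9 Hox genes, and the Snrpn window held 0. By gene, 8 of 20560 autosomal coding genes had at least 5 MNase and at least 2 sonication peaks in or within 5 kb: Snrpn, the catenin gene Ctnna2 and 6 Hox genes. Several of the 6 are short neighbours in the HoxB cluster, where 1 peak can count for more than 1 gene. The 8 genes are therefore not separate places. Per length, with the flanks, Snrpn had 10.5 MNase and 4.19 sonication peaks per Mb.

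Ndn, Magel2, Mkrn3 and Peg12 are short genes, of 1.7 to 4.7 kb, that lie within 116.2 kb. With 5 kb on each side this stretch held 10 MNase peaks, or 79.2 per Mb, and 1 sonication peak. Ndn encodes necdin, a MAGE-family protein that restrains proliferation in neurons. It had 1 MNase peak of 300 bp, chr7:62347951-62348250, which ended 27 bp before the annotated start and covered most of the promoter shown in capitals. An MNase peak over a promoter window was called for 0.992% of the 20063 promoters of autosomal coding genes, and a sonication peak for 0.0797%. These shares took the whole promoter entry, while the overlap at Ndn was measured on the bases shown, before its start. Mkrn3, a makorin-family ubiquitin ligase gene known for its role in the timing of puberty, had 1 MNase peak of 450 bp inside the gene, chr7:62418751-62419200, 953 bp from its start site. Peg12, also called Frat3 and related to the Frat regulators of GSK3, had 1 of 300 bp, chr7:62457751-62458050, 3.82 kb from the gene on the side away from its start.

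Magel2, a MAGE-family gene known for its part in protein sorting, had no MNase peak within 5 kb. The nearest, of 300 bp, lay 6.23 kb before its start and another, of 600 bp, lay 8.8 kb beyond its end, so it is the member just outside the distance used and Peg12 the one just inside. The other MNase peaks of this stretch were 300 to 600 bp wide. The lncRNA gene Gm32061, of 85.6 kb, runs over Ndn, Magel2 and Mkrn3 and held 6 of the MNase peaks. The only sonication peak, chr7:62399851-62400450 and 600 bp wide, also lay in Gm32061, 17.1 kb from Mkrn3 and 8.9 kb from the nearest MNase peak. None of the 4 genes had a sonication peak within 5 kb.

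**Figure D3:**
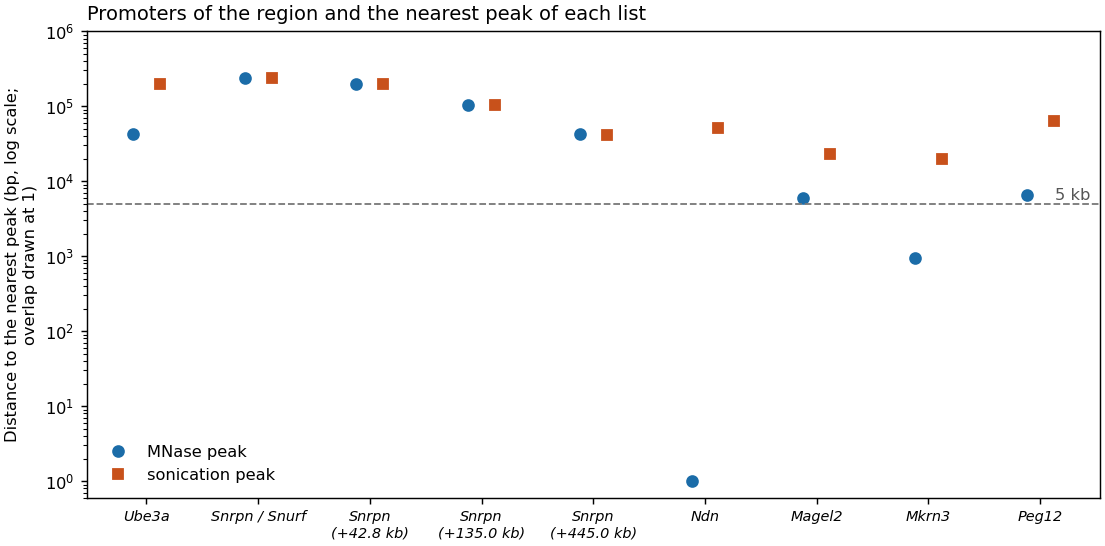
Distance in bp (log scale) from the 250 bases before each of the 9 annotated start sites to the nearest MNase peak (circles) and sonication peak (squares), with start sites in chromosome order and an overlap drawn at 1. Only Ndn and Mkrn3 lie below the dashed line at 5 kb, in the MNase list, and no sonication peak does.

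Ube3a had 1 MNase peak, of 300 bp, chr7:59271901-59272200, in a gene of 82.1 kb. It lay 43.2 kb from the Ube3a start site and 537 bp outside the annotated end of Snhg14, the silencer of Ube3a. The nearest sonication peak lay 199.6 kb away, outside the region. The stretch between Ube3a and Snurf, 671.7 kb long, held 0 peaks of either list. Autosomal windows of 1 Mb are longer, and 45.3% of them held no MNase peak and 53.9% no sonication peak. This stretch carries arrays of snoRNA genes, small RNAs that guide modification of other RNAs and are known to be processed from the Snhg14 transcript. Of 206 snoRNA records in the region, all in a stretch of 633.8 kb, 0 had a peak of either list within 5 kb, against 1.31% for MNase and 0.374% for sonication of 1070 autosomal snoRNA records outside it. Records so close together are not separate sites. The lncRNA gene Ipw, of 59.7 kb in the same stretch, held 0, as a span this short often does. The 13 miRNA genes of the Mir344 family, between Snrpn and Ndn, had 0 within 5 kb. No share of other miRNA records was counted. At shares as low as those of the snoRNA records elsewhere, a family of 13 records would often hold none. An MNase peak within the stretch that this family spans, chr7:62038051-62038350, lay 7.8 kb from Mir344f and 1.3 kb from the snRNA record Gm23431. A further 3 MNase peaks between Snrpn and Ndn, of 300, 450 and 900 bp, stood together at chr7:62226001-62228100, with 120.2 kb from the last of them to Ndn.

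Peak width differed between the groups of the region. Width moves in steps of 150 bp with a smallest width of 300 bp. The 22 MNase peaks had a median width of 450 bp (300 to 1500), the same as the 450 bp of the other autosomal peaks, and 10 had the smallest width (45.5%), against 38.0% elsewhere. The 4 that overlapped a sonication peak measured 600, 1200, 1350 and 1500 bp, while the 18 others measured 300 to 900 bp. The 5 sonication peaks were 600 or 750 bp wide, with a median of 750 bp and none at the smallest width, against a median of 300 bp and 69.7% at the smallest width elsewhere. Widths of peaks that overlapped the other list had a median of 1500 bp in the MNase list and 900 bp in the sonication list over the rest of the autosomes. No test of width was made.

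**Figure D4:**
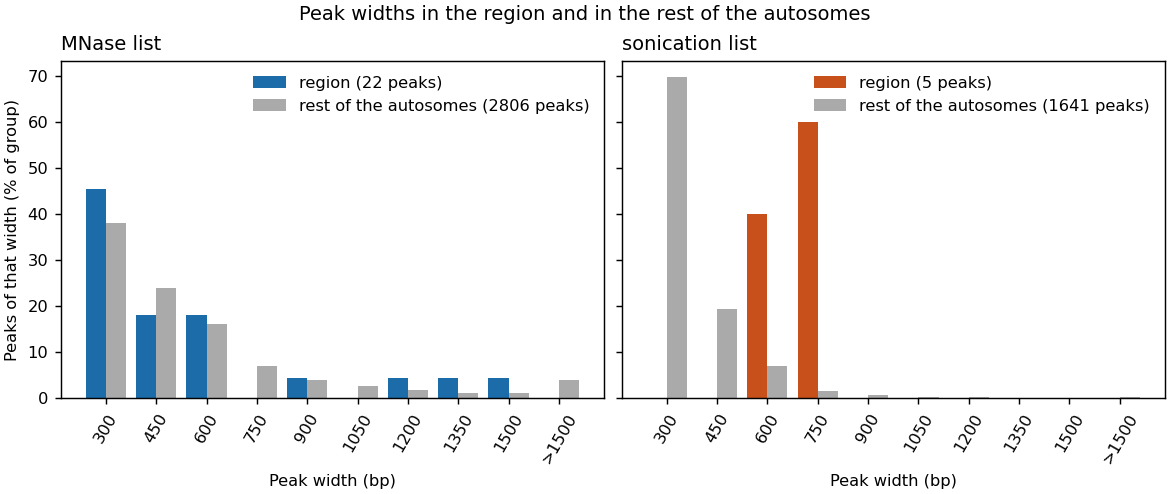
Share of peaks in percent by width in bp, for the region (left bar of each pair) and the rest of the autosomes (grey, right bar), in the MNase and the sonication list. All 5 sonication peaks of the region are 600 or 750 bp wide, while 69.7% of the others are 300 bp wide, and the MNase peaks of both groups have a median of 450 bp.

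Imprinted genes elsewhere were counted in the same way. The Kcnq1 cluster, 11 genes over 0.800 Mb of chromosome 7, had 0 MNase and 0 sonication peaks, and the Igf2r cluster, 4 genes over 0.450 Mb of chromosome 17, had 0 of each. At the density of the rest of the autosomes, 1.17 MNase and 0.684 sonication peaks per Mb, stretches this short often hold none, and the difference from the Snrpn region was not tested. Of 23 imprinted genes elsewhere, 5 had an MNase peak within 5 kb and 3 a sonication peak. Of all autosomal coding genes, 5.58% and 2.95% had one. Lengths among the 23 ran from 0.8 kb for Mcts2 to 262.8 kb for Ppp1r9a and were not matched, and no difference was tested. Usp29, a deubiquitinase-family gene, had 2 MNase peaks, and 1 of them was also the peak of its neighbour Peg3, a zinc finger gene. Grb10, an adaptor gene that restrains growth, had 1 MNase peak of 900 bp and 1 sonication peak of 1.05 kb, and was the only one of the 23 with a peak of both lists. Nnat and Asb4 had 1 MNase peak each, and Kcnk9 and Sgce 1 sonication peak each.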

How the data were processed

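Chromatin immunoprecipitation libraries from neural stem cells were summarised in peak lists. Per the labels' protocols, nuclei were isolated after formaldehyde cross-linking, and chromatin was fragmented by sonication or MNase. Per the submitters' processing notes, Bowtie 0.12.9, MACS2 and bcl2fastq were among the tools, with no role stated, and the build was mm10. The MNase list names SeqMonk as the origin of its peaks, per the file headers and cells. The authors deposited start and end positions of peaks on a 150 bp grid, with an empty value column, and a domain list with positions and a score on an unstated scale. The score was not used in any result. The part of wild-type and extract libraries in the calls is not stated in the labels or headers.

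Peaks were set against RefSeq genes (GRCm38.p6), leaving out records in the first 3 Mb of chromosomes, which is an assembly gap on the autosomes. This left 49555 records. A peak belonged to a gene when it overlapped it or came within 5 kb, and each peak was counted once in the region. Densities used autosomes beyond 3 Mb, and windows took peaks by their centre. Intervals are exact and at 95%. Promoter sequences came from the same RefSeq release. The overlap functions were tested on simulated data against bedtools. Python 3.11.15, pandas 2.3.3 and scipy 1.17.1 were used.

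The members, gene lists and counts were chosen with earlier results of these data known. Named genes were the members, the neighbours and imprinted lists with a peak, genes nearest to a peak of the region, and the 5 genes most like Snrpn in peak number. Some genes of these lists are not reported here. The Hox clusters, the genes with at least as many peaks as Snrpn, the snoRNA and miRNA arrays, Ipw and the run shared by promoters were singled out after their values were seen. No chance test was made, since the lists hold no value for a library.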

Additional observations from a re-analysis of the deposited data

How the results depend on the processing

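Among 26 comparisons with an alternative setting, 18 stayed within 1.5 times the reported count, or within the interval of a ratio, and 8 did not. The members with an MNase peak numbered 3 when gene bodies alone were counted (4.36% of all autosomal coding genes) and 2 (Snrpn and Mkrn3) when peaks of the smallest width were left out (4.27%). Within 5 kb of a start site, an alternative chosen for this count after seeing the data, they numbered 2 in the MNase list (3.11% of 16457 genes with a promoter entry) and 0 in the sonication list (0.498%). The peaks at Snrpn numbered 0 in both lists within 5 kb of a start site. Without peaks of the smallest width the region held 12 MNase peaks, and the density ratio of sonication peaks was 7.44 while that of MNase peaks was 5.10. The sonication ratio could only rise, as none of its 5 peaks in the region has the smallest width. The 5 sonication peaks of the region were counted under every setting of width, merging and region ends. With 100 kb on each side the region held 24 MNase peaks, and with peaks no more than 1 kb apart merged it held 18. Leaving out a library was not possible, as the lists are pooled. No paired analysis was possible because no column of either list belongs to a library. Depth per library was unknown, so the absence of a peak does not show the absence of binding.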

Other observations

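Beyond the 7 genes, a list of 13 neighbours on the same stretch of chromosome 7 was counted, chosen with earlier results known. One of them, Snhg14, overlaps Snrpn and Ube3a, and its peaks are those already given for these genes. Of the other 12, 5 had an MNase peak within 5 kb and 0 a sonication peak, against 5.58% and 2.95% of all autosomal coding genes. Several are long, such as Gabrg3 (670.8 kb) and Otud7a (321.5 kb) with a peak and Oca2 (296.9 kb) without one. Of autosomal coding genes of at least 400 kb, 41.7% had an MNase peak and 37.3% a sonication peak. Length was not matched in this count. Otud7a, a deubiquitinase gene on the Peg12 side, had 4 MNase peaks of up to 750 bp. Gabra5, the gene of a GABA-A receptor subunit, had 2 of 300 bp, and Gabrg3, the gene of another subunit of this inhibitory receptor, had 1 of 300 bp. Nipa1, a magnesium transporter gene, had 1 of 300 bp, and Herc2, a ubiquitin ligase gene, had 1 of 450 bp. Atp10a, Oca2, Cyfip1, Nipa2, Tubgcp5, Chrna7 and Klf13 had 0 in both lists.

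The 5 autosomal coding genes most like Snrpn were chosen by the number of peaks within 5 kb over the 2 lists, with ties broken by closeness in length, so their lengths are partly fixed by the choice. Ctnna2, which encodes a neuronal catenin, matched it with 5 MNase and 2 sonication peaks over 1098.2 kb. Zfp993 (478.6 kb), Lingo2 (1255 kb) and Sim1 (94.5 kb) had 5 and 1, and Lsamp (2197.4 kb), a neuronal adhesion gene, had 4 and 2, each a difference of 1 peak in all.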
